A study of Mus musculus with 18 samples.

Results

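*Scd1* and *Scd2* encode stearoyl-CoA desaturases, and their transcript levels are described here in the livers of 18 male C57BL/6 mice. They are 2 of the 20512 genes listed in the expression table and were chosen by name and from their values in these same livers, liver by liver and within libraries 1 to 3 and 4 to 6 of each group. Their group differences are therefore given as a description, with no test. Tests are given for other genes of the same pathway.

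Stearoyl-CoA desaturases sit in the membrane of the endoplasmic reticulum and introduce a double bond into saturated acyl-CoA, turning stearoyl-CoA into oleoyl-CoA and palmitoyl-CoA into palmitoleoyl-CoA. The electrons come from NADH through cytochrome b5 reductase and cytochrome b5, and the products are favoured building blocks of triglycerides, cholesterol esters and phospholipids. In mouse liver *Scd1* is the main form and is driven by insulin, dietary carbohydrate and the liver X receptors through the lipogenic factor SREBP1, while polyunsaturated fatty acids lower it. *Scd2* is best known from brain and from developing tissues.

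Wild-type mice entered the study at 6 to 7 weeks of age and were killed after 4 months on their diets, after an overnight fast. Fat supplied 13% of the kcal of the chow and 60% of those of the high-fat diet (HFD). The HFD+AC261066 group ate the HFD throughout and in the last 2 months drank a solution of 3 mg of AC261066 in 100 ml, a synthetic compound that activates RARβ2, an isoform of a retinoic acid receptor. The drinking water of all 3 groups held 0.2% DMSO. Each group had 6 mice with 1 library per liver, and the values are the authors' log2 expression values per gene and library. The labels also carry a cell culture protocol and a DNA library kit that belong to no liver sample, but liver genes dominated, and *Alb*, serum albumin, averaged 21.1 on the log2 scale and *Cyp2e1*, a cytochrome P450 of hepatocytes, 18.3.

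The authors had removed batch effects, and in the table the mean over the 9 livers numbered 1 to 3 equalled the mean over the 9 livers numbered 4 to 6 for every gene, to within 4.62e-14. The 2 sets were therefore treated as the levelled batches. Levelling takes the same amount from every group of a set, so it leaves the differences between groups within a set as they were. It ties the sets together, however, so a group that stands higher in 1 set than in the other forces the remaining groups to stand lower there. For this reason every difference of *Scd1* and *Scd2* is given within both sets beside its value over all livers. Other genes are given over all livers, with the values within the sets for some of them.

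The genes lie on chromosome 19 of mm9 within a cluster of 4 desaturase genes. *Scd2* runs from 44368166 to 44381354 on the plus strand and *Scd1* from 44468941 to 44482199 on the minus strand, with *Scd3* (44277759 to 44318506) and *Scd4* (44407582 to 44421233) beside them. The coding sequences of *Scd1* (1068 bases) and *Scd2* (1077 bases) were 90.4% identical over 1068 aligned bases. The reads were paired, each 51 bases long. Of all stretches of 51 bases in the exons, 141 were found in both genes, which is 2.95% of those of *Scd1* and 2.61% of those of *Scd2*. The longest identical run held 147 bases. It is shown here because a read that falls inside it cannot be assigned to 1 of these genes by its own sequence. The other read of its pair can lie outside the run, and pairs were not considered here. The stretches of both genes are on the coding strand, 5′ to 3′, from the mm9 annotation, with the bases that differ between the genes in capitals.
*Scd1*, coding bases 503 to 689: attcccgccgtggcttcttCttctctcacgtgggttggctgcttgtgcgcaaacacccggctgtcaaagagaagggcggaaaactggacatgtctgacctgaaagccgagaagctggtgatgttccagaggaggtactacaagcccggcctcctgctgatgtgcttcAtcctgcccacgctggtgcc
*Scd2*, coding bases 512 to 698: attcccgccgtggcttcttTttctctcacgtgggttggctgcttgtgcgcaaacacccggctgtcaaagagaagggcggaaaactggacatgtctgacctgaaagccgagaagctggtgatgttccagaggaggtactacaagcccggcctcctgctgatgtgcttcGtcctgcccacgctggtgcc
*Scd3* shared the first 125 bases of this run with *Scd2*, and it shared 164 stretches of 51 bases with *Scd1*. Whether reads from these stretches were counted for 1 gene, several or none is not given in the sources used here.

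*Scd1* was highest in chow livers of 1 set and HFD livers of the other, and lowest in livers of the HFD+AC261066 group in both. In chow livers the *Scd1* log2 values were 13.99, 14.03 and 14.18 in libraries 1 to 3 and 16.82, 16.13 and 16.11 in libraries 4 to 6. In HFD livers they were 14.61, 16.06 and 16.06 in libraries 1 to 3 and 14.29, 12.99 and 13.48 in libraries 4 to 6. In HFD+AC261066 livers they were 12.82, 12.40 and 12.73 in libraries 1 to 3 and 11.90, 12.61 and 12.54 in libraries 4 to 6. Within each set all treated livers lay below all chow and HFD livers, and chow and HFD livers did not overlap. Taken across the sets, all 6 treated livers lay below all 12 other livers, whereas chow and HFD livers overlapped. The order of livers across the sets depends on the levelling.

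**Figure D1:**
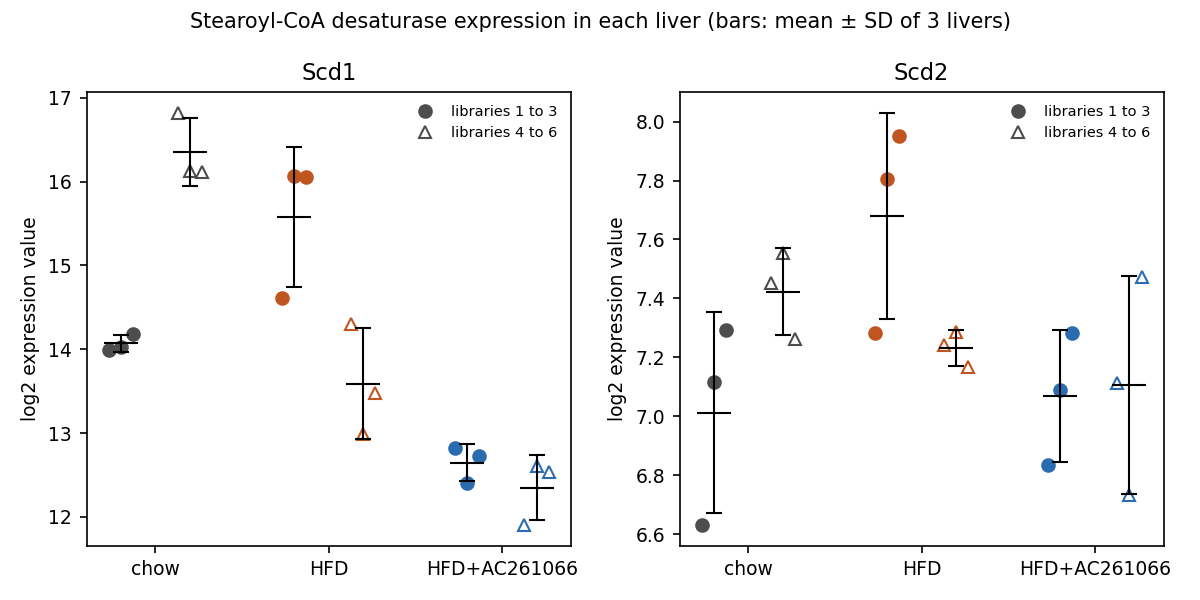
Log2 expression values of *Scd1* (left) and *Scd2* (right) in each of 18 livers by group, with libraries 1 to 3 as filled circles, libraries 4 to 6 as open triangles, and bars for the mean ± SD of 3 livers. The HFD+AC261066 livers hold the 6 lowest *Scd1* values, from 11.90 to 12.82, and the chow and HFD livers change places between the sets. The *Scd2* axis spans a much narrower range.

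On the linear scale, with levels taken as 2 raised to the log2 value, *Scd1* averaged 51616 ± 41086 (SD, n = 6) in chow, 33541 ± 27575 in HFD and 5905 ± 1200 in HFD+AC261066 livers. The highest liver exceeded the lowest by 7.12-fold within chow, by 8.40-fold within HFD and by 1.89-fold within HFD+AC261066. The wide spread of chow lay between the sets rather than within them, and that of HFD lay both between and within the sets. Within libraries 1 to 3 the chow livers ranged over 1.14-fold and within libraries 4 to 6 over 1.64-fold. The HFD livers ranged over 2.74-fold within libraries 1 to 3 and over 2.47-fold within libraries 4 to 6. *Scd1* had an SD of 1.55 over 18 livers, the 10th largest of the 13268 genes that were tested, those averaging 2 or more on the log2 scale. This SD includes the differences between groups and sets for which *Scd1* was chosen. Between livers of the same group and set the SD was 0.50.

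The diet comparison had opposite signs in the 2 sets. In libraries 1 to 3 all HFD livers lay above all chow livers in *Scd1*, with a log2 difference of 1.51 (SE 0.49, n = 3 per group), or 2.84-fold. In libraries 4 to 6 all HFD livers lay below all chow livers, with a difference of -2.76 (SE 0.45), or 6.79-fold lower. The change of the difference from 1 set to the other was -4.27 on the log2 scale, the second largest in size of the 13268 genes. Over all livers the 2 directions offset each other, and HFD minus chow was -0.63 (SE 0.55 from the limma fit, n = 6), smaller than the spread within either group. By limma, at a Benjamini-Hochberg adjusted p under 0.1, HFD gave higher values than chow in 14.2% of all tested genes and lower values in 15%, and 0.0603% (8 genes) were called as differing between the sets in this comparison. *Scd1* is given without such a call because it was chosen for its values in both sets.

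With AC261066, the *Scd1* values were lower than in HFD livers in both sets. The log2 difference of HFD+AC261066 from HFD was -2.93 (SE 0.50) in libraries 1 to 3, or 7.61-fold lower, and -1.24 (SE 0.44) in libraries 4 to 6, or 2.36-fold lower. Over all livers it was -2.08 (SE 0.55), or 4.24-fold, the third most negative difference of the tested genes. Within each set all treated livers lay below all HFD livers. In this comparison 1.27% of the tested genes were called higher and 1.54% lower, and 0.497% were called as differing between the sets.

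Treated livers lay below chow livers as well. The log2 difference of HFD+AC261066 from chow was -1.42 (SE 0.14) in libraries 1 to 3 and -4.0 (SE 0.32) in libraries 4 to 6, that is 2.68-fold and 16-fold lower. Over all livers it was -2.71 (SE 0.55), or 6.55-fold lower, the most negative of the 13268 tested genes. In libraries 1 to 3 the order of the groups was HFD, chow and HFD+AC261066, and in libraries 4 to 6 it was chow, HFD and HFD+AC261066, with no overlap between neighbours in either set. For this comparison 8.22% of the tested genes were called higher, 8.45% lower and 4.27% as differing between the sets. The 3 comparisons share their groups, so these values are not independent of each other.

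**Figure D2:**
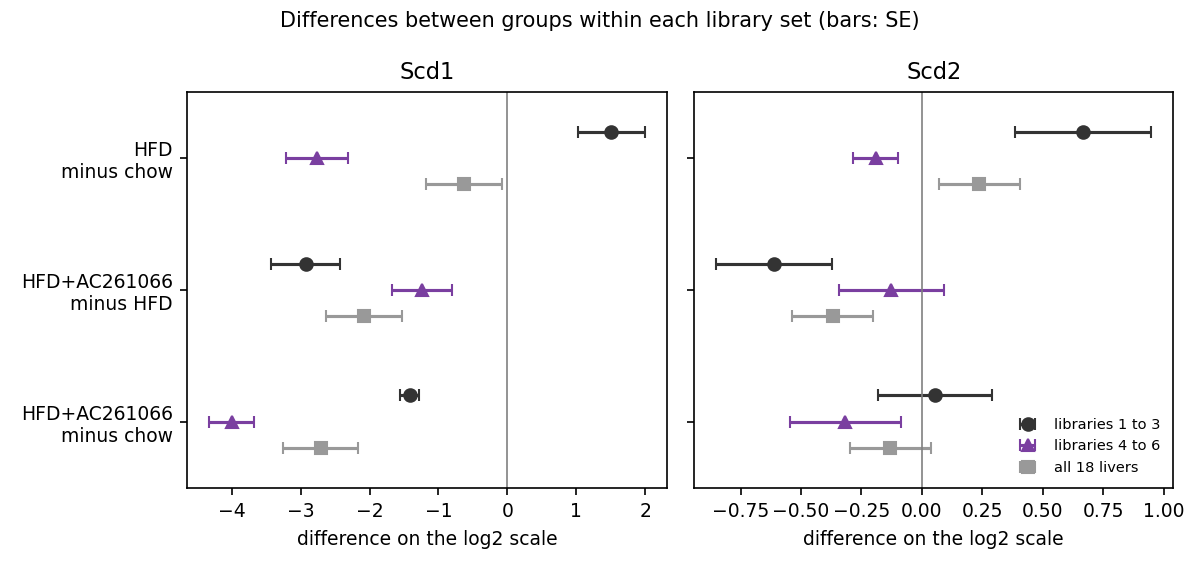
Differences between groups on the log2 scale for *Scd1* (left) and *Scd2* (right), within libraries 1 to 3 (circles), within libraries 4 to 6 (triangles) and over all 18 livers (squares), with bars for the SE. The SE within a set comes from the livers of the groups compared in that set. The SE over all livers comes from the limma fit of all groups, so the bars are not the same measure. For *Scd1* the HFD minus chow difference is 1.51 in 1 set and -2.76 in the other, while both comparisons of HFD+AC261066 lie below 0 in each set. The *Scd2* differences all lie between -0.61 and 0.67.

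*Scd2* had far lower and more even values. In chow livers its log2 values were 6.63, 7.12 and 7.29 in libraries 1 to 3 and 7.45, 7.55 and 7.26 in libraries 4 to 6. In HFD livers they were 7.28, 7.80 and 7.95 in libraries 1 to 3 and 7.24, 7.29 and 7.17 in libraries 4 to 6. In HFD+AC261066 livers they were 6.83, 7.09 and 7.28 in libraries 1 to 3 and 7.11, 6.73 and 7.47 in libraries 4 to 6. HFD replicates 2 and 3 stood highest, chow replicate 1 lowest, and the 3 groups overlapped. The levels averaged 152 ± 31.0 (SD, n = 6) in chow, 180 ± 44.1 in HFD and 138 ± 26.4 in HFD+AC261066 livers.

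The *Scd2* differences were small beside those of *Scd1*. HFD minus chow was 0.67 (SE 0.28) in libraries 1 to 3, -0.19 (SE 0.09) in libraries 4 to 6 and 0.24 (SE 0.17) over all livers. HFD+AC261066 minus HFD was -0.61 (SE 0.24), -0.13 (SE 0.22) and -0.37 (SE 0.17) in the same order. Only in libraries 1 to 3 did the groups of this comparison not overlap, with all 3 treated livers below all 3 HFD livers. HFD+AC261066 minus chow was 0.06 (SE 0.24) in libraries 1 to 3, -0.32 (SE 0.23) in libraries 4 to 6 and -0.13 (SE 0.17) over all livers and so differed in sign between the sets. The *Scd2* diet difference changed between the sets by -0.86 on the log2 scale, which ranked 137th in size of the 13268 genes.

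Per kilobase of exon, *Scd1* exceeded *Scd2* in every liver. The exons of *Scd1* span 4836 bases and those of *Scd2* 5453 bases in the annotation, and levels were divided by these lengths before the genes were compared. The *Scd1* level per kilobase was a median of 308 times that of *Scd2* in chow livers (134 to 746), 165 times in HFD livers (58.8 to 345) and 47.0 times in HFD+AC261066 livers (31.2 to 71.3). The treated group overlapped with the HFD group in this ratio, through HFD replicate 5 at 58.8, and lay below all chow livers. Where *Scd1* was 16-fold lower, between HFD+AC261066 and chow in libraries 4 to 6, *Scd2* was 1.24-fold lower. The Pearson correlation of the *Scd1* and *Scd2* log2 values was 0.60 over 18 livers (Spearman's rho 0.57) and 0.35 once the mean of each group and set was removed. Both genes come from the same libraries and share exon sequence, so this is a description only.

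*Scd3* and *Scd4*, the other desaturases of the cluster, were close to the floor of the table. The *Scd3* log2 values ran from 2.48 to 2.87 over all livers, and the log2 differences between groups were 0.05, -0.09 and -0.04 (HFD minus chow, HFD+AC261066 minus HFD and HFD+AC261066 minus chow, adjusted p = 0.626, 0.561 and 0.756 by limma). *Scd4* ran from 1.71 to 1.96 and was below the minimum for testing. Low values of this table lie close to their gene's mean, so these narrow ranges say little about either gene.

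The genes whose values followed *Scd1* most closely over the 18 livers were *Cyp2c55* (r = 0.93) and *Cyp3a59* (r = 0.88), both cytochromes P450, *Gstm3* (r = 0.87), a glutathione transferase, *Ugt1a5* (r = 0.87), a glucuronosyltransferase, and *Slco1a4* (r = 0.87), an uptake transporter of organic anions. They were taken as the 5 highest of all tested genes, which share libraries with *Scd1*, and carry no test. *Cyp2c55* shows how close the pattern was. Its log2 values were 5.80, 5.32 and 5.26 in chow libraries 1 to 3 and 7.00, 6.09 and 6.34 in chow libraries 4 to 6. In HFD livers they were 6.23, 6.53 and 6.36, then 5.30, 5.34 and 5.35, so that diet differences of 0.91 and -1.15 again had opposite signs in the sets. Its values in HFD+AC261066 livers, from 4.93 to 5.25, were the 6 lowest and were also the lowest within each set.

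*Ugt1a5* had diet differences of 0.76 in libraries 1 to 3 and -1.58 in libraries 4 to 6, and *Gstm3* of 0.79 and -0.89. *Cyp3a59* had 0.32 and -0.77, and *Slco1a4* -0.01 and -0.94. All 5 values of r were lower once the mean of each group and set was removed. They were then 0.43 for *Cyp2c55*, 0.60 for *Cyp3a59*, 0.74 for *Gstm3*, 0.41 for *Ugt1a5* and 0.42 for *Slco1a4*. The Ugt1a genes share their last exons, and the Cyp2c and Cyp3a genes have close paralogs, so reads of these genes can be hard to assign.

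**Figure D3:**
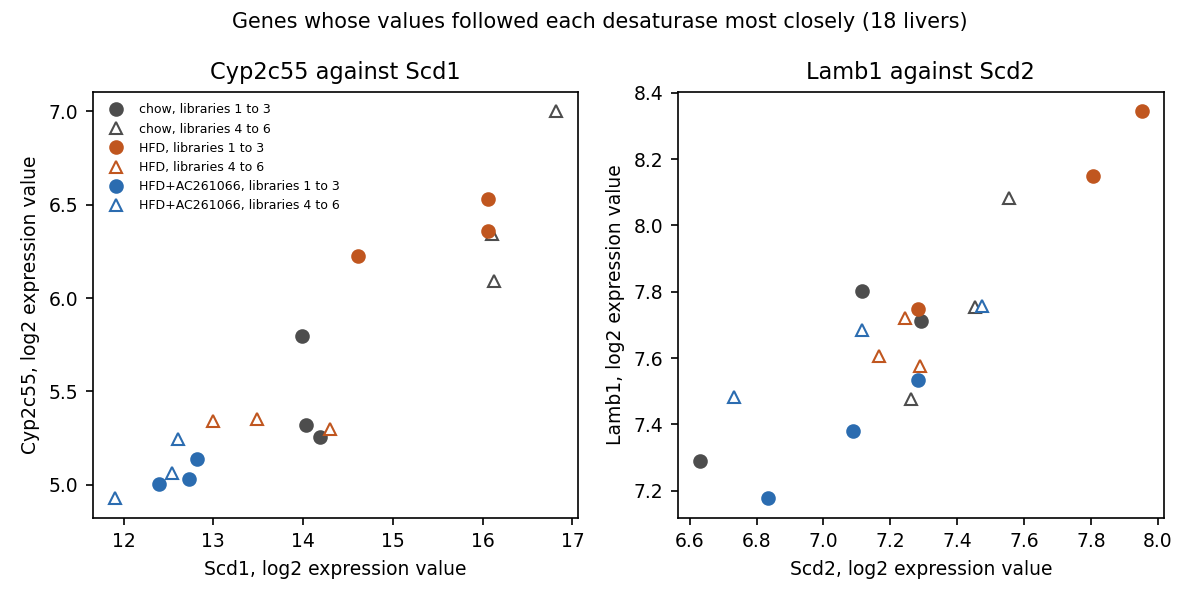
Log2 expression values of *Cyp2c55* against *Scd1* (left) and of *Lamb1* against *Scd2* (right) in 18 livers, coloured by group, with libraries 1 to 3 as filled circles and libraries 4 to 6 as open triangles. *Cyp2c55* is higher where *Scd1* is higher (r = 0.93), with the HFD+AC261066 livers together at the lower left, and *Lamb1* where *Scd2* is higher (r = 0.88), with HFD replicates 2 and 3 at the upper right.

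*Scd2* was followed by a different set of genes. The 5 closest were *Lamb1* (r = 0.88), a laminin chain of basement membranes, *Tnfrsf11a* (r = 0.87), the receptor RANK, *Fhl1* (r = 0.87), a LIM domain protein, *Slc39a11* (r = 0.86), a zinc transporter, and *Anxa1* (r = 0.85), an annexin of immune and stromal cells. With the means of group and set removed r stayed between 0.74 (*Slc39a11*) and 0.88 (*Tnfrsf11a*), so here the likeness lay between livers of the same group. In *Lamb1* as in *Scd2*, HFD replicates 2 and 3 were highest, with log2 values of 8.15 and 8.34.

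Markers of stellate cells and fibroblasts and of monocytes and dendritic cells had positive r with *Scd2*, as had markers of other cell types. Of 8 markers of stellate cells and fibroblasts (*Lrat*, *Reln*, *Des*, *Dcn*, *Col1a1*, *Col1a2*, *Col3a1* and *Pdgfrb*), r with *Scd2* ran from 0.28 to 0.82 with a median of 0.71, and r with *Scd1* from -0.03 to 0.55 with a median of 0.33. *Col1a2*, a chain of type I collagen, had its highest values in HFD replicates 2 and 3, at 9.34 and 9.68, the livers with the highest *Scd2*. Of 4 markers of monocytes and dendritic cells (*Ly6c2*, *Ccr2*, *Itgax* and *Cd209a*), r with *Scd2* ran from 0.31 to 0.75. The summed level of the stellate cell and fibroblast markers was 4875 to 8755 in chow, 5976 to 11577 in HFD and 5111 to 7042 in HFD+AC261066 livers, and that of the monocyte and dendritic markers 109 to 137, 120 to 175 and 113 to 156. The part of these cells in the *Scd2* values was not tested, and in whole liver more cells of a type and more RNA per cell cannot be told apart.

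Against chow, HFD livers had 3 of the 8 stellate cell and fibroblast markers at higher values by limma (*Lrat*, *Col3a1* and *Pdgfrb*), and against HFD the treated livers had 2 (*Col1a1* and *Col3a1*) at lower values. Over all tested genes 14.2% were called higher and 15% lower in the first of these comparisons and 1.54% lower in the second, and 8.22% were called higher and 8.45% lower between treated and chow livers. Of the monocyte and dendritic markers *Ccr2* and *Itgax* were higher in HFD. Of 7 Kupffer cell and macrophage markers (*Clec4f*, *Emr1*, *Vsig4*, *Cd5l*, *Marco*, *Cd68* and *Csf1r*) *Clec4f* and *Emr1* exceeded chow in HFD, and *Clec4f* and *Cd68* in HFD+AC261066. Their r with *Scd1* ran from -0.33 to 0.08 and with *Scd2* from 0.08 to 0.61. Of 5 hepatocyte markers (*Alb*, *Apoa1*, *Ttr*, *Cps1* and *Cyp2e1*), *Apoa1* and *Cps1* were called lower in HFD than in chow and *Cps1* in HFD+AC261066 than in chow, and their summed level was 2773160 to 3500650 in chow, 2669090 to 3090160 in HFD and 2565720 to 3363360 in HFD+AC261066 livers.

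Fat tissue is another rich source of *Scd1* transcripts. The defining adipocyte markers were at or near the floor, with mean log2 values of -0.83 for *Adipoq*, -0.77 for *Plin1* and -3.35 for *Retn*, and *Lep* listed at 0 in all livers. *Lipe*, the hormone-sensitive lipase, which other cells also express, was at 8.85. Of the endothelial markers (*Stab2*, *Clec4g*, *Lyve1*, *Kdr* and *Pecam1*), *Kdr* was called higher in HFD+AC261066 than in HFD and *Clec4g* than in chow. Over all tested genes 1.27% and 8.22% were called higher in these comparisons. *Lyve1* went the other way, with -0.45 against HFD and -0.53 against chow (adjusted p = 0.309 and 0.115 by limma), and was not called. None of 5 cholangiocyte markers (*Epcam*, *Krt19*, *Krt7*, *Spp1* and *Sox9*) was called by limma in any comparison. In HFD+AC261066 minus HFD 2 of them had an unadjusted p under 0.05 by limma, as had 2085 of the 13268 tested genes.

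The genes around the desaturase step were read from 7 lists of 70 genes, of which 67 were tested. Over these lists HFD minus chow had 15 positive and 15 negative calls, HFD+AC261066 minus HFD had 1 positive and 3 negative, and HFD+AC261066 minus chow had 7 of each, out of 67. Over all tested genes the shares called higher and lower were 14.2% and 15%, 1.27% and 1.54%, and 8.22% and 8.45% in the same order. The second of these totals, 4, was 2 without HFD+AC261066 replicate 4 and 7 without HFD+AC261066 replicate 6. The medians of the log2 differences over all tested genes were 0.0060, 5.2e-05 and 0.0036 in the 3 comparisons.

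The electron supply of the desaturases showed small differences. Of 6 tested genes, *Cyb5b*, a cytochrome b5 of the outer mitochondrial membrane, was higher in HFD than in chow by 0.23 on the log2 scale (adjusted p = 0.0984). *Cyb5r1*, a cytochrome b5 reductase, and *Por*, the cytochrome P450 reductase, had -0.28 and -0.24 (adjusted p = 0.0321 and 0.0968). The calls of *Cyb5b* and *Por* ended in 18 and 19 of 29 alternative settings. *Cyb5*, the microsomal cytochrome b5 that hands electrons to the desaturase, had differences of 0.16, 0.08 and 0.24 in the 3 comparisons (adjusted p = 0.305, 0.748 and 0.149), and *Cyb5r3* and *Cyb5r4*, 2 more reductases, had differences between -0.13 and 0.04. The median difference of the list was 0.0069 in HFD minus chow and 0.05 in HFD+AC261066 minus HFD. In the second of these limma called no member, beside 1.27% of all tested genes called higher and 1.54% lower. There 1 member had an unadjusted p under 0.05 by limma, as had 2085 of the 13268 tested genes. *Cyb5r2* averaged 1.11 on the log2 scale and was not tested.

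Among the enzymes that make the saturated substrates, the diet comparison was led by *Thrsp*, a lipogenic nuclear protein, with a log2 difference of 2.85 (adjusted p = 3.87e-06) and of 3.33 and 2.37 within the sets. In HFD+AC261066 it fell by 1.91 from HFD (adjusted p = 0.0013), by 2.26 and 1.56 within the sets. Its values did not overlap between HFD livers, from 11.77 to 12.85, and treated livers, from 9.69 to 11. The diet difference of *Thrsp* thus had the same sign in both sets, unlike that of *Scd1*, and against HFD both genes had lower values in the treated livers of each set. *Pklr*, the liver pyruvate kinase, was higher in HFD than in chow by 1.07 (adjusted p = 0.000411) and *Pgd*, a source of NADPH, by 0.25 (adjusted p = 0.0498). Of 15 genes, 4 were higher and 2 (*Acacb*, the mitochondrial acetyl-CoA carboxylase, and *Slc25a1*, the citrate carrier, named after its values were seen) lower in HFD minus chow, beside 14.2% and 15% over all tested genes, with a median of 0.09.

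The enzymes that carry out the main steps of fatty acid synthesis were not called in any of the 3 comparisons. *Fasn*, fatty acid synthase, had log2 differences of 0.36, -0.23 and 0.14 (adjusted p = 0.134, 0.563 and 0.640), and *Acaca*, the cytosolic acetyl-CoA carboxylase, of 0.09, -0.05 and 0.05 (adjusted p = 0.534, 0.868 and 0.801). *Acly*, ATP citrate lyase, had -0.19 (adjusted p = 0.360) and *Aacs*, acetoacetyl-CoA synthetase, -0.70 (adjusted p = 0.209) in HFD+AC261066 against HFD. *Acacb* differed by -0.43 between HFD and chow (adjusted p = 0.0976, a call that ended in 18 of 29 alternative settings, and -0.04 and -0.81 within the sets) and by -0.68 between HFD+AC261066 and chow (adjusted p = 0.0251). Its r with *Scd1* over 18 livers was 0.78, against -0.10 for *Fasn* and -0.06 for *Srebf1*. With the means of group and set removed r was 0.52 for *Acacb*, 0.06 for *Fasn* and 0.13 for *Srebf1*. The r of *Acacb* was not tested.

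Elongases work before and after the desaturase. *Elovl6*, which makes the stearoyl-CoA that the desaturase takes, had log2 differences of 0.28, -0.26 and 0.02 (adjusted p = 0.184, 0.418 and 0.944). *Elovl2*, an elongase of polyunsaturated fatty acids, was lower in HFD than in chow by a log2 difference of -0.62 (adjusted p = 0.000772) and higher by 0.47 in HFD+AC261066 than in HFD (adjusted p = 0.0361). The second of these calls ended without HFD+AC261066 replicate 4. *Elovl1*, *Elovl3*, *Elovl5* and *Elovl7* had differences between -0.22 and 0.24 and were not called, and *Elovl4* was too low to be tested. The medians of the 6 tested elongases were 0.0024, 0.0060 and -0.01.

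Of the desaturases that act on other bonds and lipids, *Fads2*, a front-end desaturase of polyunsaturated fatty acids, was higher in HFD+AC261066 than in chow by 0.61 on the log2 scale (adjusted p = 0.0197). The difference was 0.14 in libraries 1 to 3 and 1.08 in libraries 4 to 6, and the sets differed by 0.95 (adjusted p = 0.0426 for the interaction). The larger of these differences lay in the set with the larger *Scd1* difference from chow, in the opposite direction, and r of *Fads2* with *Scd1* was -0.77 over 18 livers and -0.64 with the means of group and set removed. *Degs1*, the dihydroceramide desaturase, was lower than in chow in HFD, with -0.31 (adjusted p = 0.000976), and in HFD+AC261066, with -0.22 (adjusted p = 0.0218), and *Degs2*, its relative, was higher in HFD by 0.21 (adjusted p = 0.0420) from a difference of 0.42 in libraries 1 to 3 and -0.01 in libraries 4 to 6. *Degs2* averaged only 3.05 on the log2 scale, against 10.9 for *Degs1*, and low values of this table lie close to their gene's mean. *Fads1*, *Fads3* and *Fads6* had differences between -0.15 and 0.23 and were not called.

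The factors known to drive *Scd1* changed with the diet in both directions. *Srebf1*, which encodes SREBP1, was higher in HFD than in chow by 1.05 (adjusted p = 0.000117, 1.34 and 0.75 within the sets) and in HFD+AC261066 than in chow by 0.64 (adjusted p = 0.0124, 1.03 and 0.25 within the sets). *Pparg* was higher in HFD by 0.80 (adjusted p = 0.0047, 1.06 and 0.54 within the sets) and *Nfya*, a subunit of the CCAAT-binding factor NF-Y, by 0.37 (adjusted p = 0.0155). *Scap*, the escort of SREBP proteins, had -0.31 (adjusted p = 0.0057). Of these 20 genes 6 had positive and 6 negative calls in HFD minus chow, with a median of -0.03, beside 14.2% and 15% over all tested genes.

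In HFD+AC261066 against HFD limma called none of the 20 regulators, beside 1.27% of all tested genes called higher and 1.54% lower. By limma 5 of the 20 had an unadjusted p under 0.05, as had 2085 of the 13268 tested genes. With so few genes these counts are not read as a result about the list. The smallest p-values belonged to *Scap* (0.24, adjusted p = 0.108), *Pparg* (-0.51, adjusted p = 0.162), *Srebf1* (-0.41, adjusted p = 0.163) and *Nr1h2* (0.15, adjusted p = 0.287), the last encoding liver X receptor beta. Against chow, *Nr1h3*, liver X receptor alpha, was higher in HFD+AC261066 by 0.27 (adjusted p = 0.0171) and *Mlxipl*, the carbohydrate-responsive factor ChREBP, by 0.55 (adjusted p = 0.0438, a call that ended without HFD+AC261066 replicate 4). *Mbtps2*, a protease that activates SREBP proteins, had -0.27 (adjusted p = 0.0301) and *Ppargc1a*, a coactivator of fasting genes, -0.63 (adjusted p = 0.0322). By limma the same genes were also called in HFD against chow, in the same directions. There *Nr1h3* had 0.21 and *Mlxipl* 0.46 (adjusted p = 0.0333 and 0.0554). *Mbtps2* had -0.25 and *Ppargc1a* -0.51 in that comparison (adjusted p = 0.0225 and 0.0443). Of the 20 genes 3 were thus called above chow in treated livers (*Srebf1*, *Nr1h3* and *Mlxipl*) and 2 below it (*Mbtps2* and *Ppargc1a*). Over all tested genes 8.22% were called higher and 8.45% lower. The *Srebf1* call ended in libraries 4 to 6 alone. *Scd1* values were below chow in both sets, and its relation to these differences was not tested.

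Enzymes of the routes that form acyl-CoA and build triglycerides, cholesterol esters and phospholipids from it were higher or lower with the diet by gene. *Mogat1*, a monoacylglycerol acyltransferase, was higher in HFD by 1.71 (adjusted p = 3.72e-05), fell by 0.86 in HFD+AC261066 against HFD (adjusted p = 0.0466) and was higher than in chow by 0.86 (adjusted p = 0.0171). *Dgat2*, which makes triglycerides from newly made fatty acids, was higher in HFD by 0.25 (adjusted p = 0.0053) and fell by 0.29 in HFD+AC261066 against HFD (adjusted p = 0.0189). *Agpat2* was higher in HFD by 0.41 (adjusted p = 0.0093) and *Lpin2* had -0.37 (adjusted p = 0.0512). The *Mogat1* call against HFD ended without HFD replicate 2 or 3 and without HFD+AC261066 replicate 4. *Dgat1* and *Lpin1* had -0.25 and -1.37 in HFD+AC261066 against chow (adjusted p = 0.0299 and 0.0860), and the *Lpin1* call, from -2.64 in libraries 1 to 3 and -0.10 in libraries 4 to 6, ended in 14 of 29 alternative settings. Both genes were also called lower in HFD than in chow, with -0.17 and -1.19 (adjusted p = 0.0966 and 0.0962 by limma). Those calls ended in 17 and 19 of 29 alternative settings. *Soat2* and *Lpcat3*, for cholesterol esters and phospholipids, had 0.20 and 0.13 in HFD+AC261066 against HFD and were not called. The 13 genes had 3 positive and 3 negative calls in HFD minus chow, 2 negative calls in HFD+AC261066 minus HFD and 2 of each in HFD+AC261066 minus chow, with medians of 0.06, 0.0044 and 0.15. The shares of all tested genes called higher and lower were 14.2% and 15%, 1.27% and 1.54%, and 8.22% and 8.45%, and with so few genes these counts are not read as a result about the list.

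Within groups, no relation of either desaturase with 6 lipogenic genes passed the test. For *Srebf1*, *Fasn*, *Elovl6*, *Acaca*, *Mlxipl* and *Pparg* the mean of each group and set was removed, and the livers were permuted within group and set in all 46656 arrangements (exact permutation test, two-sided, n = 18 livers). The strongest of the 12 relations was that of *Scd1* with *Pparg*, with r = 0.54 (exact permutation p = 0.148) and rho = 0.41 (p = 0.206), and r fell to 0.31 without the 2 livers farthest from the median. *Scd2* had r = -0.46 with *Mlxipl* (exact permutation p = 0.178, rho = -0.49, p = 0.102). *Scd1* had r = 0.13 with *Srebf1* (exact permutation p = 0.671), 0.06 with *Fasn* (exact permutation p = 0.863) and 0.18 with *Elovl6* (exact permutation p = 0.612). Adjusted over the 12 relations, no p was below 0.870 for Pearson's r or 0.911 for Spearman's rho.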

How the data were processed

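Liver RNA of 6 mice per group, 1 library per mouse, was sequenced as paired reads of 51 bases. The deposited log2 values were made by the authors, who aligned reads to mm9 with TopHat2 2.0.11, counted them per gene with HTSeq 0.6.1, scaled the counts with DESeq2 1.6.3 and corrected for batch with limma's removeBatchEffect (3.22.7). The submitters' processing notes also name bcl2fastq 2.17 and cutadapt. The transform to log2 is not given in the sources used here. Low genes vary little around their mean in it, so their differences can be too small. Counts were not used here, so depth is unknown. Library medians over tested genes ran from 8.35 to 8.38, and 3620 genes stood at 0 in every library.

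*Scd1*, *Scd2* and the gene lists were chosen with earlier results of these data known. The 13268 genes averaging 2 or more were fitted by limma (version 3.58.1, R 4.3.3) with a variance trend and a term for the library set (14 residual and 4.88 prior degrees of freedom), calls being made at an adjusted p (Benjamini-Hochberg) under 0.1. Set differences were tested as an interaction, and the fit was tested on simulated data. Named genes were the desaturases, all members of lists of 10 or fewer, up to 4 members of longer lists with the smallest p in each comparison, the 5 genes closest to each desaturase and 6 partners for correlation. Results of some list members are not reported here. Alternatives were each set alone, each library left out, quantile normalization, equal medians, no set term, a replicate block, no minimum or a minimum of 5, no trend, only the 2 groups compared and a threshold of 0.05. Sequences came from an annotation of mm9. Other tools were Python 3.11.15, numpy 2.4.6, pandas 2.3.3, scipy 1.17.1, Biopython 1.88 and matplotlib 3.10.9.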

Additional observations from a re-analysis of the deposited data

Results flagged for a closer look

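*Scd1* had opposite diet differences in the 2 library sets, with every liver of libraries 1 to 3 higher and every liver of libraries 4 to 6 lower in HFD than in chow. The change was -4.27 on the log2 scale and is given without a test. *Cyp2c55* (-2.06) and *Ugt1a5* (-2.34) had the same separation. Both were chosen for their likeness to *Scd1*, so no test is given for them either.

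The following genes on the 7 lists differed between the sets by the limma interaction. In HFD+AC261066 minus HFD this was *Lpin2*, a phosphatidate phosphatase, with 0.90 (adjusted p = 0.0573, libraries 4 to 6 minus libraries 1 to 3). In HFD+AC261066 minus chow *Fads3* had -1.27 (adjusted p = 0.0205), *Fads2* 0.95 (adjusted p = 0.0426), *Acsl3* -1.25 (adjusted p = 0.0718), *Lpin1* 2.54 (adjusted p = 0.0821), *Srebf1* -0.78 (adjusted p = 0.0853) and *Elovl5* 0.83 (adjusted p = 0.0856). *Acsl3*, an acyl-CoA synthetase, is named after its values were seen.

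Single livers stood apart from the other 5 of their group in 5 of 63 groups examined, where chance flags about 1 in 20. They were *Scd3* in HFD+AC261066 replicate 2 (log2 value 2.87), *Ugt1a5* (8.12) and *Slco1a4* (11.1) in HFD+AC261066 replicate 3, *Pparg* in chow replicate 3 (7.72) and *Col1a2* in chow replicate 5 (8.88). No value of *Scd1* or *Scd2* was among them. The check took both sets of a group together, and for *Scd1* the sets lay far apart. Their means were 14.07 and 16.35 in chow and 15.58 and 13.59 in HFD livers. The check thus does not tell whether an *Scd1* value stood apart within its set. In HFD libraries 1 to 3, replicate 1 had 14.61 and replicates 2 and 3 had 16.06 each, and no test within sets was run.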

How the results depend on the processing

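The *Scd1* diet difference reversed between the sets. HFD minus chow was 1.51 in libraries 1 to 3 alone and -2.76 in libraries 4 to 6 alone, against -0.63 over both. The *Scd1* differences of HFD+AC261066 kept their sign and moved in size, to -2.93 and -1.24 against HFD and to -1.42 and -4.0 against chow. For *Scd2* HFD minus chow was 0.67 in libraries 1 to 3 and reversed to -0.19 in libraries 4 to 6, and HFD+AC261066 minus chow reversed to 0.056 in libraries 1 to 3. The cause was not tested. Quantile normalization, equal medians and leaving out any 1 library kept the sign of all 6 differences. Single libraries nevertheless moved the smaller ones by over 1.5 times. *Scd1* HFD minus chow ran from -0.94 without HFD replicate 2 or 3 to -0.28 without chow replicate 4, with -0.29 and -0.39 without HFD replicates 5 and 6. *Scd2* HFD minus chow was 0.11 without chow replicate 1 and 0.13 without HFD replicate 3, and its HFD+AC261066 minus chow was -0.26, -0.08 and -0.06 with chow replicate 1, 4 or 5 left out and -0.08, -0.05 and -0.21 with HFD+AC261066 replicate 1, 5 or 6 left out. The SD between livers of a group and set was 0.50 for *Scd1* and 0.27 for *Scd2*.

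Counts of called genes depended on the libraries. Libraries 1 to 3 alone gave 922, 23 and 123 genes in HFD minus chow, HFD+AC261066 minus HFD and HFD+AC261066 minus chow, against 3880, 372 and 2212 over both sets, with fewer samples tested, and 10, 2 and 3 of the pathway genes, against 30, 4 and 14. Libraries 4 to 6 alone gave 620 genes in HFD+AC261066 minus HFD and 23 pathway genes in HFD+AC261066 minus chow. Without the set term 581 genes and 7 pathway genes were called in HFD+AC261066 minus HFD. A threshold of 0.05 gave 172 there and 1239 in HFD+AC261066 minus chow. Leaving out 1 library, HFD+AC261066 minus HFD ran from 125 (without HFD+AC261066 replicate 4) to 683 (without HFD+AC261066 replicate 6), with 207, 160 and 234 without HFD replicates 2, 3 and 5 and 192 without HFD+AC261066 replicate 5, and its pathway genes from 2 to 7. HFD+AC261066 minus chow gave 1387 genes without chow replicate 6, its lowest count, and 2811 without HFD+AC261066 replicate 3, its highest, with 1404 without chow replicate 4 and 1455 without HFD+AC261066 replicate 4.

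Of the 43 calls of named pathway genes, 1246 repeats under the alternatives kept 1073 and lost 172. The 1 reversal was *Degs2* in HFD minus chow, at -0.012 in libraries 4 to 6 alone. No relation with the 6 partners passed under any alternative run, with adjusted p from 0.245 to 1. Same-numbered livers correlated from -0.17 to 0.21 in their deviations, so the numbers do not pair the livers. With the replicate block, 3636, 292 and 1863 genes were called in the 3 comparisons and 37 of the 43 named calls were kept. Depth is unknown, so the spread between livers sets the precision.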
